A study of Mus musculus with 6 samples.

Results

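The genes described here make, take up and export bile acids and the lipids that leave the liver with them. They are 32 of the 16140 genes in the table of a mouse liver RNA-seq series, listed by name, with earlier results of these data known. Of the 32, 12 encode enzymes of bile acid synthesis and conjugation, 7 proteins that bring bile acids and other organic anions into the hepatocyte, 11 proteins of export, and 2 the receptor pair for the intestinal hormone FGF15. All 32 were found in the table by symbol, and 31 had enough counts to be tested. The remaining member, Slc51b, had 3 counts in control replicate 1 and 0 in each of the other libraries, where a count of 0 allows up to 3 counts.

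Both groups consisted of 3 libraries of poly(A)-enriched RNA from whole liver. The controls had the genotype Selofl/fl and no treatment. The knockouts had the genotype Selofl/fl Alb-Cre, in which the albumin promoter drives Cre in hepatocytes and deletes Selenoo, which encodes SelO, a selenoprotein of mitochondria. Floxed alleles were thus common to all 6 libraries, Cre was in knockouts alone, and effects of Cre and of the Selenoo deletion cannot be told apart. Per the series title the mice were on a normal diet. The labels used here give no age, sex, strain background or time of collection. Nothing in the labels says that each library came from a separate mouse, and p-values measure the spread between these libraries, which may be technical. Selenoo had 94.8, 84.2 and 96.0 CPM (counts scaled to library size and composition) in controls and 6.29, 9.31 and 7.67 in knockouts, which left 8.46% of the control mean.

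Hepatocytes turn cholesterol into bile acids by a classical route, which CYP7A1 opens and limits, and by an alternative route through oxysterols, which CYP27A1 and CYP7B1 carry. CYP8B1 adds the hydroxyl group that makes cholic acid, peroxisomal enzymes shorten the side chain, and SLC27A5 and BAAT attach taurine or glycine. NTCP (Slc10a1) and the OATP carriers take bile acids up from portal blood. BSEP (Abcb11) pumps them into the canaliculus, MDR2 (Abcb4) adds phospholipid, and ABCG5 with ABCG8 adds cholesterol. Bile acids that return from the gut lower Cyp7a1 through FXR in the hepatocyte and through FGF15, which is sensed by FGFR4 with its partner beta-Klotho.

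In knockout livers 1 of the 31 tested members changed past the threshold, the efflux pump gene Abcg2, which rose 1.98-fold. The threshold was an adjusted p of 0.05 over all 12173 genes tested, in edgeR's quasi-likelihood test. Over all genes tested 0.772% were higher and 0.715% lower by that rule, and no member was lower. At an unadjusted p under 0.05, 12 members were higher and 1, Cyp7a1, lower, against 9.27% and 9.26% of all genes. CPM of the groups did not overlap in 11 members with higher and 4 with lower values in knockouts, against 13.3% and 11.9% of all genes. The median log2 fold change, knockout over control, was 0.23 among 12 synthesis members, 0.05 among 7 uptake members and 0.49 among 10 tested export members, against -0.02 among all genes tested. These counts and medians describe the list and were not tested as a list.

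**Figure D1:**
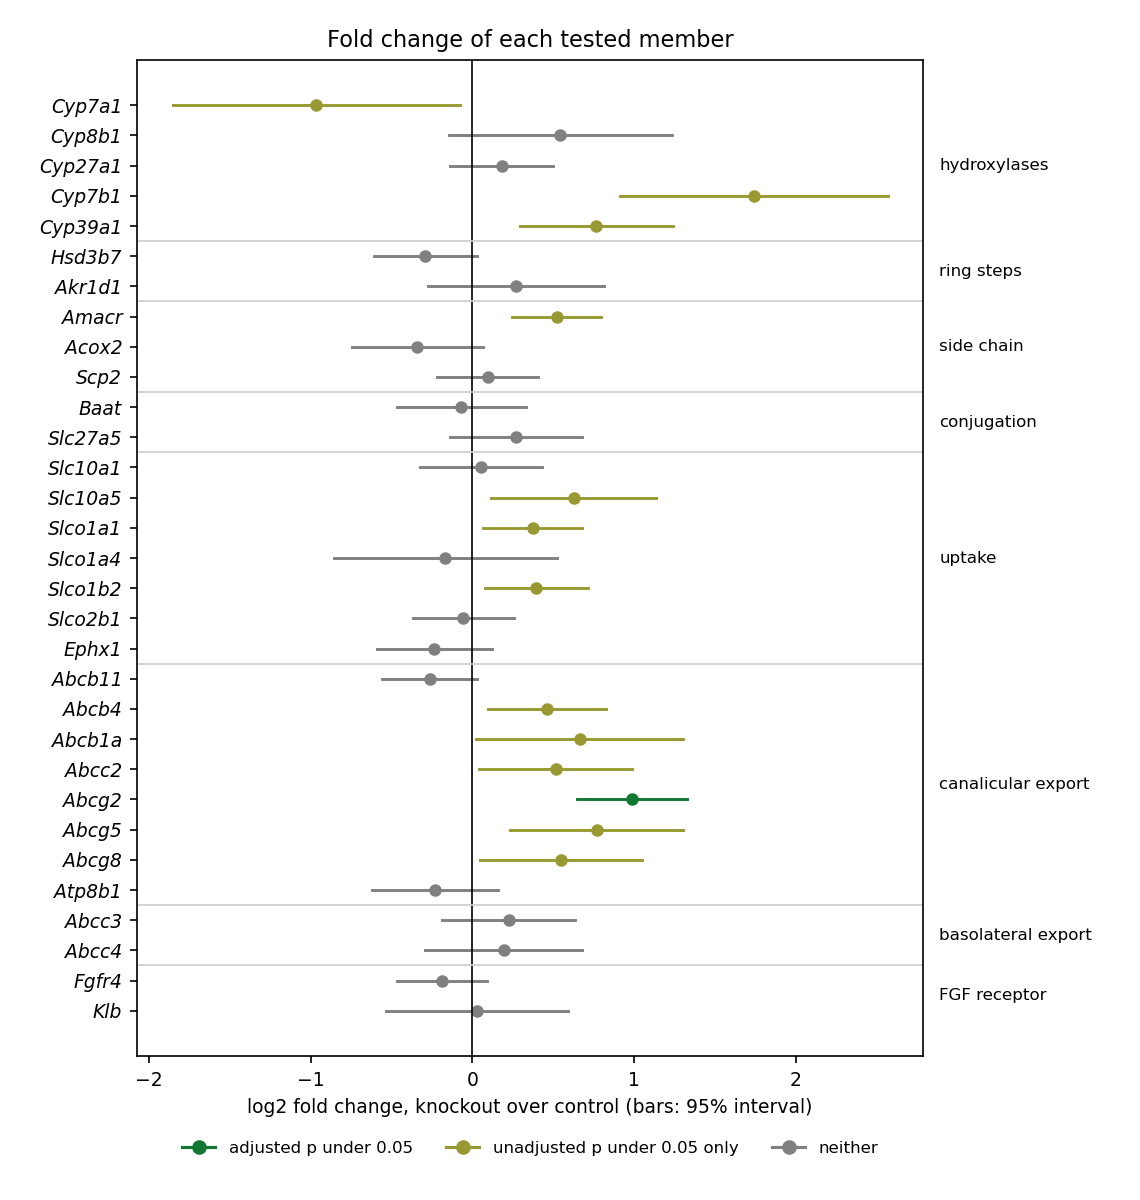
Log2 fold change, knockout over control, of the 31 tested members with 95% intervals from edgeR's fit, grouped by role. Abcg2 alone passed an adjusted p of 0.05. Of the 31 members 21 lay above 0 and 10 below it, with Cyp7a1 lowest. Of 8 canalicular exporters 6 lay above 0, and Abcb11 and Atp8b1 below it.

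Promoters are shown for 3 parts of the result: Abcg2 as the called member, Abcg5 and Abcg8 as a head-to-head pair with like values, and Cyp8b1 as the enzyme that sets the kind of bile acid made. RefSeq windows of 300 bases on GRCm38.p6, from 250 before a start to 50 after it, were matched by gene ID to 23 of the 32 members. No window was available for Cyp7a1, Cyp7b1, Cyp39a1, Amacr, Baat, Slc27a5, Slc10a5, Abcc3 and Atp8b1, so the motif counts leave these out. Capitals mark matches on either strand to 5 motifs: the nuclear receptor hexamer AGGTCA, the LRH-1 motif CAAGGNCA, which can contain that hexamer, the HNF4 motif CAAAGTCCA, the TATA box TATAAA and the forkhead motif TGTTTGC. Abcg2 has 3 annotated starts, and counts per gene leave the start in use unknown. Its windows lie on the plus strand at chr6:58584283-58584582, chr6:58596422-58596721 and chr6:58640296-58640595, in that order:
Abcg2 upstream start: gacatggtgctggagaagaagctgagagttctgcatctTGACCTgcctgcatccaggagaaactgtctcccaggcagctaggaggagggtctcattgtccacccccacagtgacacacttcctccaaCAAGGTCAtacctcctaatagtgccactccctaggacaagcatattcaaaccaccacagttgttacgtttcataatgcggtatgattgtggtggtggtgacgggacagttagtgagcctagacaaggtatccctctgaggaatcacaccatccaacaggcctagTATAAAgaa
Abcg2 middle start: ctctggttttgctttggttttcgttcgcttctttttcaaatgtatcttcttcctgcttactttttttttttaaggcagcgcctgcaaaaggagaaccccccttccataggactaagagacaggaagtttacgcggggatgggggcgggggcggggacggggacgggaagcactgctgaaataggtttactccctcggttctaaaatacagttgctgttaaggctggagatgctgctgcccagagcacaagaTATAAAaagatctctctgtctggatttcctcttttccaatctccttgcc
Abcg2 downstream start: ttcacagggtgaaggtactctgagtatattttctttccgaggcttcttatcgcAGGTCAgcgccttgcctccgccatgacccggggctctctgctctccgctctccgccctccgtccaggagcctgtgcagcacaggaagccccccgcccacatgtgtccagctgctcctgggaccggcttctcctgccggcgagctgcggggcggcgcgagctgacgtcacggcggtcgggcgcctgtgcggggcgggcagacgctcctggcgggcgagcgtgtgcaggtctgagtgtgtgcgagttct

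The Abcg8 window, on the plus strand at chr17:84682871-84683170, also holds the start of Abcg5, which runs the other way from a site 110 bases upstream. The Abcg5 and Abcg8 windows share 209 bases:
Abcg8 with Abcg5: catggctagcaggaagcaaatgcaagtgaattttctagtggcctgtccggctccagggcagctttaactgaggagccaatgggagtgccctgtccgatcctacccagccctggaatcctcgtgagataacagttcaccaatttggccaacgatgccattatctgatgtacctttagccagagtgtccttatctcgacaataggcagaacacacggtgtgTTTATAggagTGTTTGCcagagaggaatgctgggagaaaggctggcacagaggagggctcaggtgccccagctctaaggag

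The Cyp8b1 window lies on the minus strand at chr9:121916256-121916555, and its HNF4 and LRH-1 matches overlap:
Cyp8b1: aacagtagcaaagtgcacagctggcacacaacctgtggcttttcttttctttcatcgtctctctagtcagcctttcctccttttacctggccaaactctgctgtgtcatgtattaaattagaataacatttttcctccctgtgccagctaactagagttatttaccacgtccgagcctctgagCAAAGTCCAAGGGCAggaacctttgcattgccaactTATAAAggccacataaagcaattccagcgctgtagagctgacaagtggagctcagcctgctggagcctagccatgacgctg

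Of the 23 members with a window, 9 held AGGTCA, as did 16.3% of all 32851 windows in the RefSeq table. CAAGGNCA was in Abcg2 and Cyp8b1 and in 6.71% of all windows, and CAAAGTCCA in Cyp8b1 and 0.475% of all. TATAAA was in 8 members and 13.6% of all windows, and TGTTTGC in 4 members (Abcg5, Abcg8, Ephx1 and Slco1b2) and 5.07% of all. Abcg5 and Abcg8 were counted apart for both motifs, although their matches are the same bases in the shared stretch. A member can have several windows and counts if any of them matches, so member counts and window shares are unlike measures. A match is a description of letters only.

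Levels between genes were compared in TPM, which is per transcript length. In the controls Scp2, the peroxisomal thiolase and sterol carrier gene, was the most abundant member at 1628 ± 169 TPM (SD, n = 3). Slc10a1 followed at 566 ± 34.5 TPM. Slc27a5 (403 ± 135), Ephx1 (345 ± 47.3) and Cyp27a1 (342 ± 81.8 TPM) came next and did not differ beyond their spread. Cyp8b1 had 204 ± 47.1 TPM, and Cyp7a1, the enzyme that limits the classical route, had 19.7 ± 6.24. Among exporters Abcb11 (64.9 ± 8.53 TPM), Abcc3 (54.6 ± 18.3) and Abcb4 (52.9 ± 1.81) were close to each other, while Abcg2 was at 19.0 ± 4.04. Abcc4 and Abcb1a were near the bottom, at 0.577 ± 0.0907 and 0.370 ± 0.161 TPM.

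**Figure D2:**
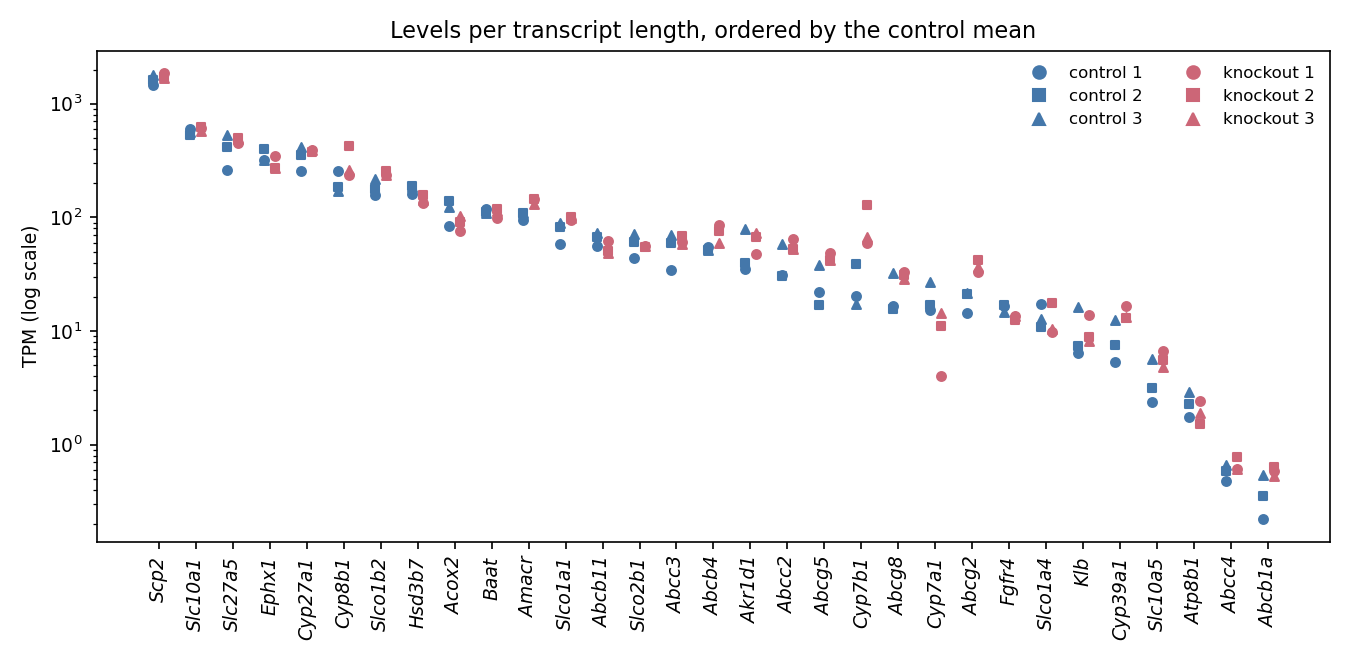
TPM (log scale) of 31 members in each of the 6 libraries, ordered by the mean of the 3 controls, with controls in blue and knockouts in red; Slc51b, at 0 in most libraries, is left out. Levels ran from 1628 TPM for Scp2 to 0.370 TPM for Abcb1a in the control means, and the spread within a group was often as wide as the step between neighbours.

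Among synthesis genes none passed. Cyp7a1 (NCBI Gene 13122, chromosome 4, 6265612 to 6275632, GRCm38) had 57.2, 51.6 and 77.2 CPM in controls and 12.1, 36.0 and 47.3 in knockouts. Every knockout library was below every control, but they ranged from 19.5% to 76.4% of the control mean, with knockout replicate 1 far below the other two. Its log2 fold change was -0.96 ± 0.40 (SE), and the 95% interval ran from -1.85 to -0.07. In edgeR's test the adjusted p was 0.234, which did not pass. Without knockout replicate 1 the change was -0.57 and the adjusted p 0.327.

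Cyp7a1 follows a daily rhythm in mouse liver, and some clock genes differed between the same libraries. Of 15 tested clock and clock-output genes, 2 were higher and 1 lower past the threshold, against 0.772% and 0.715% of all genes. The list as a whole was split, with 8 positive and 7 negative fold changes and a median log2 fold change of 0.0004. Nr1d1, the clock repressor REV-ERB alpha, fell from 114, 109 and 82.8 CPM in the controls to 46.6, 23.6 and 14.7 in knockouts (log2 fold change -1.84, adjusted p 0.041). Cry1 (1.15, adjusted p 0.012), a repressor of the core clock, and Nfil3 (0.61, adjusted p 0.044), a rhythmic repressor, rose. The summed CPM of 16 such genes was 538 to 699 in controls and 563 to 621 in knockouts. Their part in the Cyp7a1 difference was not tested.

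Cyp7b1, the oxysterol 7-alpha-hydroxylase of the alternative route (NCBI Gene 13123, chromosome 3, 18071944 to 18243890), had the widest positive fold change of the members. It had 37.5, 57.6 and 24.4 CPM in controls and 86.9, 204 and 108 in knockouts. The groups did not overlap, and knockout replicate 2 stood highest at 513% of the control mean. Its log2 fold change was 1.74 ± 0.37 (SE), and the interval ran from 0.91 to 2.57. The adjusted p was 0.0553 in edgeR's test, just outside the threshold, and 0.0246 in DESeq2. It was 0.0308 with the replicate number as a block, 0.0182 with no low-count filter and 0.0451 with the length trend removed. It was 0.0572 with DESeq2's size factors in edgeR, 0.0575 with the CPM filter, and 0.0760 and 0.0725 in limma at its pseudocounts. Leaving out single libraries gave 0.0525 to 0.175.

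Cyp7b1 is more abundant in male than in female mouse liver, and a list of other genes with that bias was read beside it. Of 15 male-biased genes that are no members, 1, Serpina1e, passed and rose, against 0.772% of all genes. A positive fold change was seen in 13 of the 15, as in 5822 of all 12173 genes tested. At an unadjusted p under 0.05 in edgeR's test, 10 of the 15 were higher and 1 lower, against 9.27% and 9.26% of all genes. The median log2 fold change of these male-biased genes was 0.79, against -0.02 among all genes tested. Their summed CPM was 13641, 15973 and 6420 in controls and 20484, 23124 and 26294 in knockouts. Control replicate 3 was the lowest library both in that sum and in Cyp7b1. In Slco1a1, another male-biased member, control replicate 3 was instead the highest control, at 242 CPM. The summed CPM of 19 female-biased genes that are no members was 239.6, 94.0 and 587 in controls and 676, 307 and 369 in knockouts, so those groups overlapped. Of the 11 of them tested, none passed, 7 had a negative and 4 a positive fold change. Among all 12173 genes tested, 6351 were negative. At an unadjusted p under 0.05 in edgeR's test, 2 of the 11 were higher and 4 lower, against 9.27% and 9.26% of all genes. The part of this bias in the Cyp7b1 values was not tested.

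Cyp39a1, a hydroxylase of oxysterols on chromosome 17 (43667372 to 43751431), had 14.8, 16.4 and 26.3 CPM in controls and 36.1, 30.6 and 31.3 in knockouts. The groups did not overlap, and control replicate 3 was the nearest control to the knockouts. The log2 fold change was 0.77 ± 0.21 (SE) and the adjusted p 0.104 in edgeR's test, which became 0.0133 without control replicate 3. It was 0.133 to 0.296 with any other single library left out, 0.163 with the replicate block and 0.0243 in DESeq2. Cyp27a1, the mitochondrial enzyme that opens the alternative route, had 415, 457 and 519 CPM in controls and 506, 525 and 546 in knockouts. These ranges overlapped, and the interval of its log2 fold change was -0.14 to 0.50. Cyp8b1 had 420.2, 239.6 and 213 CPM in controls and 305, 596 and 370 in knockouts, which overlapped because control replicate 1 was high. Its log2 fold change was 0.54 ± 0.31 (SE), with an interval of -0.14 to 1.23.

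Within each library the balance of these enzymes was also read as a ratio of TPM, a set of ratios chosen after the members' values had been seen. Cyp7b1 to Cyp7a1 was 1.34, 2.28 and 0.646 in controls and 14.7, 11.6 and 4.67 in knockouts. Cyp8b1 to Cyp7a1 was 17.0, 10.7 and 6.36 against 58.4, 38.3 and 18.1. In both ratios every knockout was above every control, although control replicate 1 came close to knockout replicate 3 in the latter. Cyp7b1 was higher and Cyp7a1 lower in every knockout than in any control, so the groups of their ratio could not overlap. The Cyp8b1 ratio has the same lower Cyp7a1 values as its denominator. Both ratios therefore restate the members' values and add no separate result. An exact two-sided permutation test of 3 against 3 libraries cannot give a p below 0.1.

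Later steps of synthesis gave no call. Amacr, the racemase that prepares the side chain for peroxisomal shortening, had 107, 112 and 115 CPM in controls and 160.5, 167 and 152 in knockouts. The groups were well apart and tight, at a log2 fold change of 0.52 ± 0.12 (SE). In edgeR's test the adjusted p was 0.0722. DESeq2 gave 0.00216, the removal of the length trend 0.0485, and the fit without control replicate 3 0.0495. The replicate block gave 0.204, limma 0.181 and 0.182 at its pseudocounts, and the fits with any other single library left out 0.0600 to 0.290. Acox2, the side-chain oxidase, was at -0.34 (interval -0.74 to 0.07) and Scp2 at 0.09 (-0.22 to 0.41). Of the ring-modifying enzymes, Hsd3b7 was at -0.29 (-0.61 to 0.03), with groups that did not overlap, and Akr1d1, the 5-beta-reductase, at 0.27 (-0.27 to 0.82). The conjugation genes were at 0.27 (-0.14 to 0.68) for Slc27a5, the bile acid CoA ligase, and -0.07 (-0.47 to 0.33) for Baat, the amino acid transferase.

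**Figure D3:**
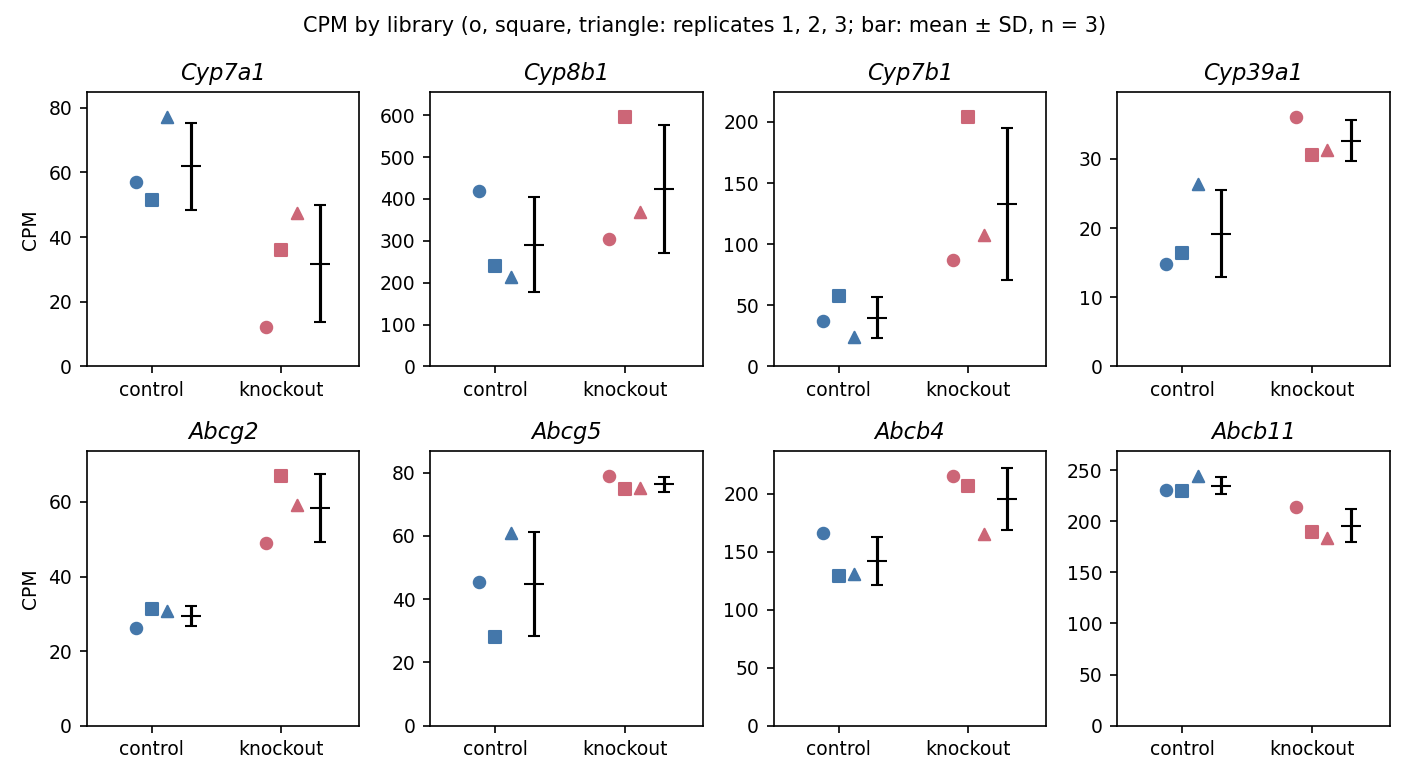
CPM in each library of 4 hydroxylase and 4 canalicular transporter genes (linear axes from 0; circle, square and triangle are replicates 1, 2 and 3; bars are mean ± SD, n = 3). Cyp7a1 spans 12.1 to 47.3 CPM in knockouts, and Abcg2 lies between 48.9 and 66.9 CPM there against 26.3 to 31.4 in the controls.

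Among uptake genes no member passed. Slc10a1, which encodes NTCP, the main sodium-dependent bile acid carrier (NCBI Gene 20493, chromosome 12, 80953185 to 80968705), had 818, 582 and 596 CPM in controls and 656, 737 and 679 in knockouts. The knockouts lay inside the range of the controls, and the interval of the log2 fold change was -0.32 to 0.43. Slc10a5, a less studied relative, had 8.39, 8.99 and 15.2 CPM in controls and 18.8, 16.7 and 14.9 in knockouts, with control replicate 3 among the knockouts. Its log2 fold change was 0.63 ± 0.23 (SE). The adjusted p in edgeR's test was 0.190. It was 0.0188 without control replicate 3 and 0.273 to 0.436 with any other single library left out.

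The 3 OATP genes Slco1b2, Slco1a4 and Slco1a1 lie in a cluster on chromosome 6 between 141629452 and 141946962. Slco1b2, the broad hepatic anion carrier, had 458, 415 and 486 CPM in controls and 545, 645 and 599 in knockouts, and its log2 fold change was 0.40 ± 0.14 (SE). Slco1a1, which is male-biased in mouse liver, had 208, 233 and 242 CPM in controls and 269.7, 313 and 304 in knockouts, and was at 0.37 ± 0.14. In both genes every knockout was above every control, and neither passed (adjusted p 0.185 and 0.194 in edgeR's test). Slco1a4, which is female-biased, was at -0.17 with an interval of -0.86 to 0.53, and its groups overlapped widely. Reads of these similar paralogs may have been divided among them in the counting. Slco2b1 was at -0.05 (-0.37 to 0.26), and Ephx1, the microsomal epoxide hydrolase that has also been linked to bile acid uptake, at -0.24 (-0.59 to 0.12).

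Export held the called member. Abcg2, the canalicular pump for urate, porphyrins and conjugated sterols (NCBI Gene 26357, chromosome 6, 58584491 to 58694861), had 26.3, 31.4 and 30.7 CPM in controls and 48.9, 66.9 and 59.3 in knockouts. The lowest knockout was well above the highest control. The means were 29.5 ± 2.76 and 58.4 ± 9.02 CPM (SD, n = 3), a log2 fold change of 0.99 ± 0.15 (SE). The adjusted p in edgeR's test was 0.0167. Abcg2 missed the threshold in fits that left out control replicate 2 (adjusted p 0.0514), knockout replicate 2 (0.0923) or knockout replicate 3 (0.0818), at log2 fold changes of 1.03, 0.88 and 0.98.

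The cholesterol transporter subunit genes Abcg5 and Abcg8, whose products work as a pair, had like values, with CPM apart in both. Abcg5 had 45.5, 28.0 and 60.8 CPM in controls and 78.9, 74.7 and 75.2 in knockouts. Abcg8 had 52.3, 41.2 and 81.2 CPM in controls and 85.4, 88.4 and 81.8 in knockouts. The controls were widely spread, with control replicate 3 highest in both genes and, for Abcg8, next to the lowest knockout. Log2 fold changes were 0.77 ± 0.24 and 0.55 ± 0.22 (SE), with adjusted p of 0.134 and 0.229 in edgeR's test, and 0.0251 and 0.0192 without control replicate 3. Without control replicate 2 the log2 fold changes were 0.52 and 0.35. Leaving out any other single library gave adjusted p of 0.161 to 0.332 for Abcg5 and 0.322 to 0.484 for Abcg8. In the table the gene bodies overlap by 6710 bases on opposite strands, counted from the further Abcg8 start at 84676302. Without a stated strand setting, reads in that stretch cannot be told apart.

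Other canalicular genes differed in direction. Abcb11, the bile salt export pump (NCBI Gene 27413, chromosome 2, 69238282 to 69342616), had 230.1, 229.9 and 244 CPM in controls and 214, 189 and 183 in knockouts. Every knockout was below every control, and the interval of the log2 fold change of -0.26 ± 0.13 (SE) was -0.56 to 0.03. The adjusted p was 0.315 in edgeR's test. Abcb4, the phospholipid floppase on chromosome 5 (8893614 to 8959226), had 166, 129 and 131 CPM in controls and 215, 207 and 165 in knockouts. Its groups overlapped at control replicate 1 and knockout replicate 3, and the log2 fold change was 0.46 ± 0.16 (adjusted p 0.182). The TPM ratio of Abcb4 to Abcb11 was 0.990, 0.769 and 0.722 in controls and 1.37, 1.51 and 1.23 in knockouts, which did not overlap. This ratio was also chosen after the values had been seen, with Abcb4 higher and Abcb11 lower in knockouts. It therefore restates those values and adds no separate result.

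Abcc2, the pump for conjugated organic anions (MRP2), had 153, 120.2 and 220.3 CPM in controls and 255, 223 and 228 in knockouts. Control replicate 3 was nearly as high as the knockouts, and the log2 fold change was 0.52 ± 0.21 (adjusted p 0.231 in edgeR's test). Without control replicate 3 it was 0.79 (adjusted p 0.0300), without control replicate 2 0.33 (0.485), and the adjusted p with any other single library left out was 0.310 to 0.471. Abcb1a, a drug efflux pump, was scarce, with 1.01, 1.34 and 1.97 CPM in controls and 2.20, 2.57 and 2.16 in knockouts (adjusted p 0.253), and some of its estimated counts were not whole. Atp8b1, the canalicular aminophospholipid flippase, was at -0.23 with an interval of -0.62 to 0.16. On the basolateral side, which carries bile acids back to blood, Abcc3 was at 0.22 (-0.19 to 0.63) and Abcc4 at 0.19 (-0.29 to 0.68).

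The receptor pair for FGF15 gave no call. Fgfr4 was at -0.19 (-0.47 to 0.09), with 31.1 to 36.9 CPM in controls and 28.6 to 31.0 in knockouts, which did not overlap. Klb, which encodes beta-Klotho, was at 0.03 (-0.53 to 0.59), and its highest values were in control replicate 3 and knockout replicate 1.

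**Figure D4:**
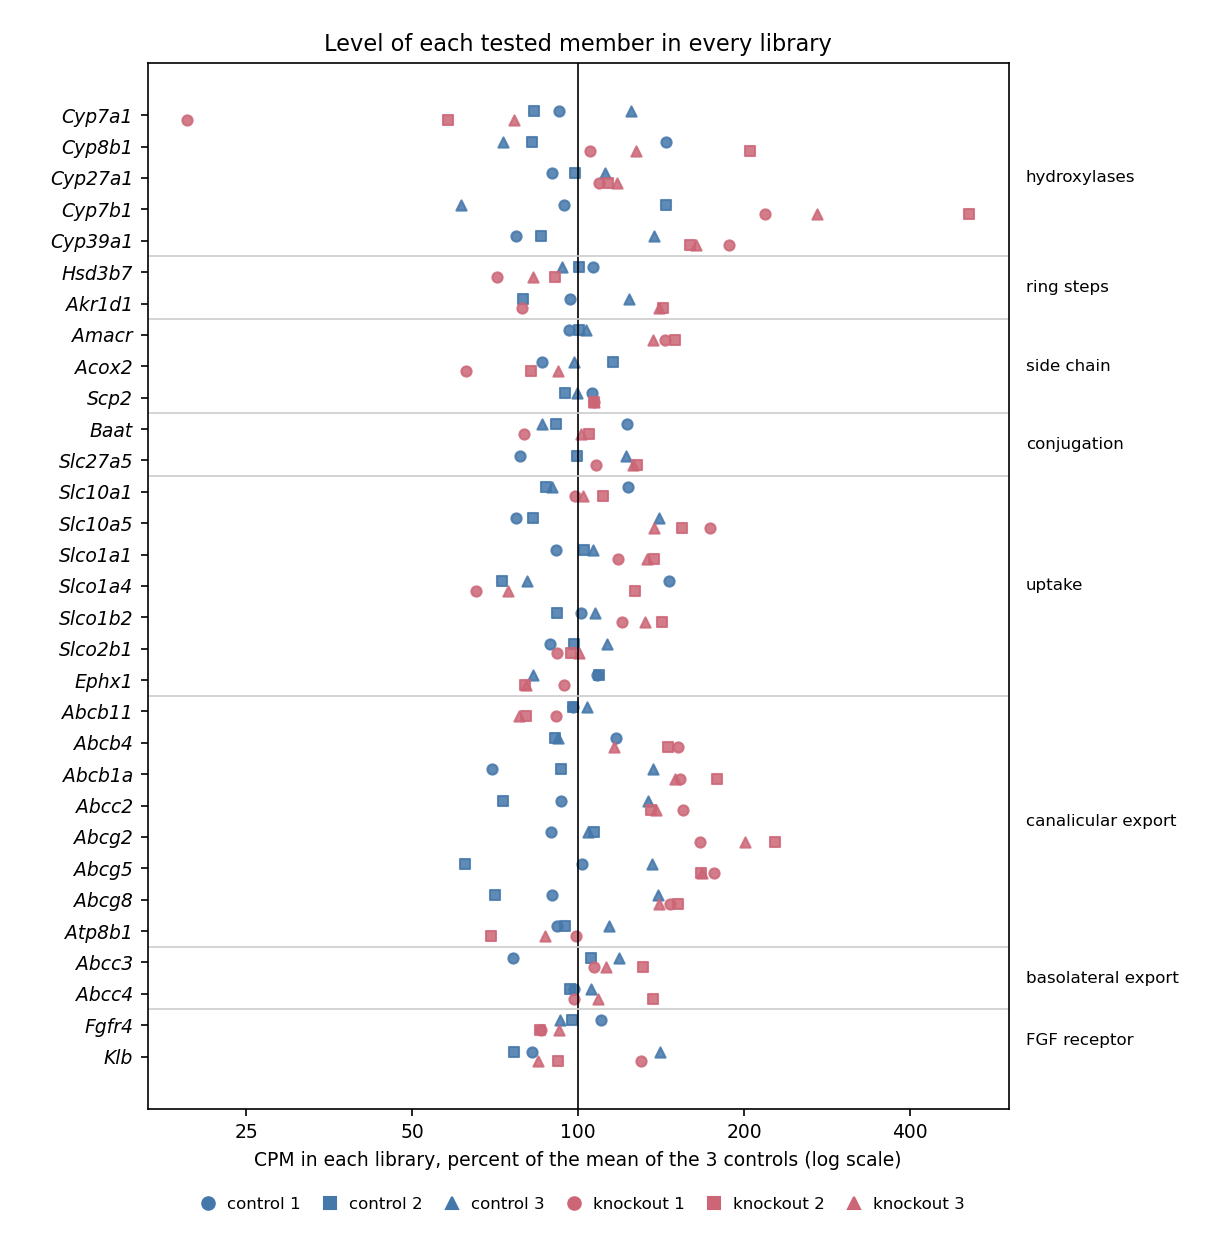
CPM of the 31 tested members in each library as a percent of the mean of the 3 controls (log scale), grouped by role, with controls in blue and knockouts in red. Knockout replicate 1 lies at 19.5% for Cyp7a1 and knockout replicate 2 at 513% for Cyp7b1, and control replicate 3 lies near the knockouts for Abcg5, Abcg8 and Abcc2.

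Other genes of bile acid biology were counted in fixed lists. Of 15 tested further enzymes and peroxisomal carriers 1 rose and none fell: Abcd3, a peroxisomal carrier of bile acid intermediates, had 151, 133 and 217 CPM in controls and 356, 358 and 319 in knockouts (log2 fold change 1.04 ± 0.19, adjusted p 0.0345). Of 19 tested regulators 1 rose and none fell: the coactivator gene Ppargc1a, at 4.36, 4.34 and 5.50 CPM in controls and 9.83, 10.7 and 11.7 in knockouts (1.18 ± 0.16, adjusted p 0.0131). Of 25 tested other transporters and their partners none passed, with 6 higher and 0 lower at an unadjusted p under 0.05. The 3 with the smallest p were Tmem30a, the partner subunit of Atp8b1 (0.49 ± 0.14, adjusted p 0.110), the lipoprotein receptor gene Scarb1 (0.50 ± 0.17, 0.163) and the anion carrier gene Slc22a7 (1.20 ± 0.40, 0.164). At an unadjusted p under 0.05 in edgeR's test, 6 of the 15 enzymes and carriers were higher and 0 lower. Of the 19 regulators 4 were higher and 1 lower by that rule. Over all genes tested 9.27% were higher and 9.26% lower by it, and 0.772% and 0.715% passed the threshold. Among members, DESeq2 called 5 higher and 0 lower, against 3.08% and 2.18% of all genes to which it gave an adjusted p. Without control replicate 3, edgeR called 7 members higher and 0 lower, against 3.30% and 2.12% of all genes.

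Depth and makeup of the libraries bear on all these values. Estimated counts summed to 15550289 to 18680195 per library. Albumin made up 101591 to 138750 CPM in all 6. Of 11 tested hepatocyte markers, 1 was called higher and 0 lower. Their log2 fold changes ran from -0.67 to 0.94, with 8 positive and 3 negative. Of 8 tested biliary markers none passed, and their list's summed CPM, mostly Pigr, was 996 to 1298 in controls and 930.0 to 1110.5 in knockouts. The bile duct keratin gene Krt19 had 0.985 to 3.82 CPM in controls and 1.31 to 2.27 CPM in knockouts. Among other marker lists, of 15 periportal markers all had a positive fold change and 3 rose, the cadherin gene Cdh1 (1.63) and the gluconeogenic genes Pck1 (0.76) and G6pc (0.91), while none of 14 pericentral markers passed. Of 10 endothelial markers 1 fell, the hyaluronan receptor gene Lyve1 (-1.15, chosen after its value was seen). None of 9 tested lymphocyte markers passed, 5 were lower at an unadjusted p under 0.05, and the list's summed CPM was 10.8 to 19.5 in controls and 5.06 to 9.20 in knockouts. None of 11 Kupffer cell markers passed, 10 had a negative and 1 a positive fold change, and 4 were lower at an unadjusted p under 0.05. The summed CPM of the Kupffer list was 525 to 763 in controls and 482 to 545 in knockouts. Over all genes tested in edgeR's fit, 0.772% were called higher and 0.715% lower. At an unadjusted p under 0.05, 9.26% of them were lower. A positive fold change was seen in 5822 of all 12173 genes. The part of these lists in the members' values was not tested. In bulk RNA fewer cells of a type and less RNA per cell cannot be told apart. Abundance relative to the other libraries also varied with transcript length. Across genes, which are not independent replicates, Spearman's rho was -0.29, -0.22 and 0.27 in controls and 0.26, 0.085 and 0.088 in knockouts. With that trend removed the export median was 0.42 and Abcg2 had an adjusted p of 0.0229.

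In the authors' deposited table, a DESeq2 comparison, 5 of the 32 members had a q value under 0.05, all higher in knockouts: Abcg2, Amacr, Cyp39a1, Cyp7b1 and Abcg5. Of all genes with a q value in that deposited table, 2.03% were higher and 1.44% lower. Cyp7b1 had a log2 fold change of 1.74 there and a q value of 0.0324.

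**Figure D5:**
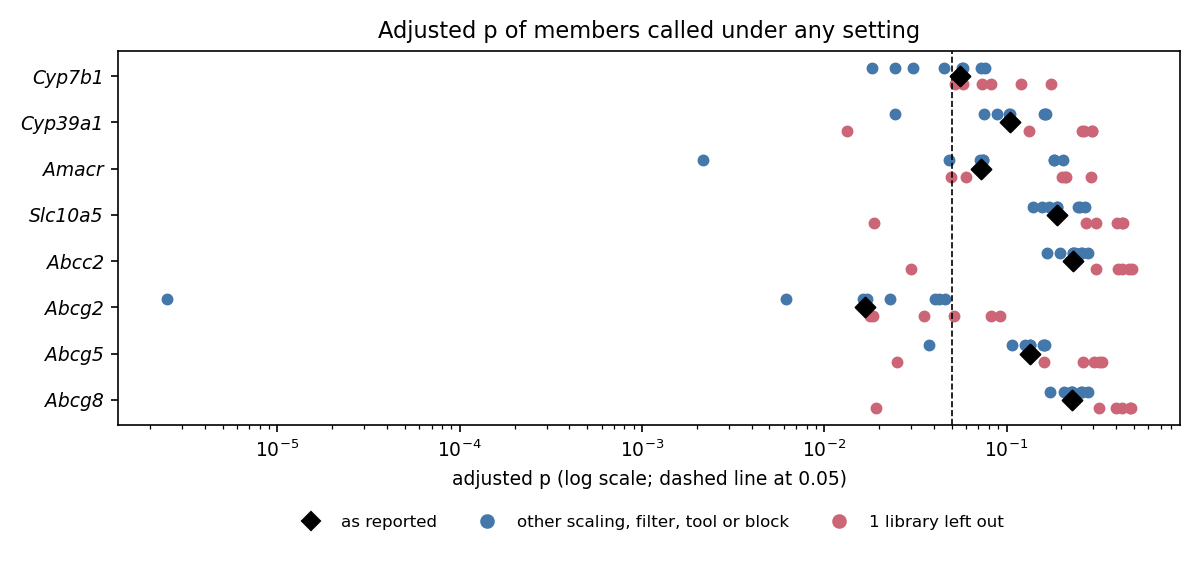
Adjusted p (log scale) of the 8 members that passed 0.05 under any setting: diamonds are the values as reported, blue points other scaling, filters, tools or a replicate block, red points fits with 1 library left out. Abcg2 lies left of the dashed line in 11 of 14 alternatives, Cyp7b1 in 4, and the others in 1 to 3.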

How the data were processed

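RNA-seq of 3 control and 3 knockout liver libraries was analysed from 1 table of 16140 genes. Per the submitters' processing notes, the authors used HISAT2, Bowtie2 and RSEM 1.3.1 on GRCm38; the strand setting is not given in the sources used. Per the file headers, the authors deposited estimated counts, FPKM and TPM per library, and log2 fold changes with q-values of their own DESeq2 comparison. Columns were matched by group and number.

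The estimated counts, of which 4.55% to 4.98% per library were not whole, were rounded, filtered with filterByExpr, scaled with TMM and compared with edgeR 4.0.16 (R 4.3.3; quasi-likelihood F test, Benjamini-Hochberg over 12173 genes, threshold 0.05), which was tested on simulated data. Standard errors come from the F statistic and intervals are 95%. Alternatives used DESeq2 1.42.0, limma 3.58.1 and those named in the closing section. Lengths for the length trend are the longest GENCODE M21 coding transcript, found for 98.7% of tested genes.

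Members and lists were chosen with earlier results of these data known. Values in every library are given for members with an adjusted or unadjusted p under 0.05 and for Cyp27a1, Cyp8b1, Slc10a1 and Abcb11 (Cyp8b1 was added after its values were seen); of the other lists, called genes or else the 3 with the smallest p. Clock, sex-biased and zonation genes were named after their values were seen. Each pair of libraries differed by more than sampling noise (lowest chi-square divided by its degrees of freedom 20.0). Counting floors cover counting error only, since PCR reads are not independent molecules.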

Additional observations from a re-analysis of the deposited data

How the results depend on the processing

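Genes called in all numbered 181 as reported, 330 with no low-count filter, 634 with DESeq2, 110 with limma on log2(FPKM + 1), and 43 (without knockout replicate 2) to 668 (without control replicate 3) with 1 library left out. Members called higher numbered 1 as reported (Abcg2), 2 with no low-count filter (with Cyp7b1), 5 with DESeq2 (with Cyp7b1, Cyp39a1, Amacr and Abcg5), 3 with the length trend removed (with Cyp7b1 and Amacr), and 0 to 7 with 1 library left out: 7 in the fit lacking control replicate 3, and 0 in those lacking control replicate 2 or either of knockout replicates 2 and 3. No member was called lower under any of the 14 alternatives run. With the replicate number as a block 87 genes and 2 members (Abcg2 and Cyp7b1) were called; same-numbered libraries correlated at -0.16, -0.079 and -0.076 in their deviations from the group means, so the numbers gave no pairing. With 1 library left out the median log2 fold change ran from 0.13 to 0.32 for synthesis, -0.034 to 0.23 for uptake and 0.34 to 0.60 for export; on log2(FPKM + 1), a scale that understates low genes, the export median was 0.28. Under the alternatives 10 fold changes of single members had the opposite sign, all in members near 0 and with 1 library left out: Baat ran from -0.16 to 0.10, Slc10a1 from -0.034 to 0.23, Slco1a4 from -0.51 to 0.21, Slco2b1 from -0.13 to 0.042 and Klb from -0.18 to 0.36. The cause of these shifts was not tested. Depth limits Slc51b, where 0 counts allow up to 3.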
